A study of Mus musculus with 18 samples.

Results

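The genes described here carry glucose into the cell, break it down to pyruvate and send it on to lactate. They are 10 of the 23951 gene rows of the expression table, chosen by symbol: the glucose transporters Slc2a1, Slc2a3, Slc2a4 and Slc5a9, the hexokinases Hk1 and Hk2, the regulatory enzyme Pfkfb3, phosphoglycerate kinase Pgk1, lactate dehydrogenase A (Ldha) and the lactate exporter Slc16a3. All 10 were found and all 10 were tested. Each was measured by RNA-seq in 18 libraries from epidermal cells of mouse ear skin, 3 libraries in each of 6 groups.

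The DKO* mice carried floxed JunB and c-Jun alleles, the tamoxifen-inducible K5-Cre-ERT transgene and the mT/mG reporter, which turns cells from red (Tomato) to green (GFP) once Cre has acted. The K5 promoter drives Cre in basal keratinocytes and epidermal stem cells, so that recombined GFP+ (mutant) cells and Tomato+ (non-mutant) cells lay side by side in the same ear. Controls (Co) were mT/mG mice that carried the same Cre with floxed c-Jun and JunB alleles absent or heterozygous, and they received tamoxifen as well. Mice of both sexes on a mixed background were given 4 daily injections of 2 mg tamoxifen at 8 weeks of age, and cells were sorted 7 days after induction as CD45- CD49f-high cells with surface CD34 (hair follicle stem cells, HF-SC) or without it (basal keratinocytes, b-KC). For each cell type the groups were Co, GFP and Tom, with 3 mice each, and they are written HF-SC Co, b-KC Tom and so on. Control mice 810, 825 and 828 gave both control populations, and DKO* mice 814, 815 and 817 gave all 4 DKO* populations.

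Facilitative transporters of the Slc2a family let glucose follow its gradient into the cell, and hexokinase traps it there as glucose 6-phosphate. Glycolysis then yields ATP and pyruvate, and lactate dehydrogenase with a proton-coupled monocarboxylate transporter disposes of the pyruvate as lactate. Epidermis is poorly supplied with vessels and makes much lactate even when oxygen is present, and several enzymes of this route are textbook targets of the hypoxia-inducible factor HIF, which binds DNA at a core of the letters ACGTG or GCGTG.

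RefSeq start sites (build GRCm38.p6) were listed for 7 of the 10 genes, in 10 windows of 250 bases just upstream; Slc2a3, Slc2a4 and Slc5a9 had no entry. The letters ACGTG, on either strand, stood in 7 of the 10 windows against 16.6% of all 32851 windows of that length. The windows of these genes were richer in G and C (median 64.6%) than all windows (median 52.4%), and the 5 letters hold a CG step. The 7 windows belonged to Slc2a1, Hk2, Pfkfb3 (both of its starts), Pgk1, Ldha (the first of its starts) and Slc16a3. Both windows of Hk1 were without it. The palindrome CACGTG, which always contains ACGTG, was in 2 windows (6.02% of all), GCGTG in 4 (28.2% of all) and the AP-1 letters TGANTCA in none (6.75% of all). Such matches describe the letters of the window and say nothing of binding. Below are 4 windows with ACGTG and 1 of Hk1 without it, read in the direction of transcription and ending at the base before the start. ACGTG or its reverse complement CACGT is in capitals. GCGTG, the other form of the HIF core, is not marked. The Hk1 window shown held 2 GCGTG sites and the 4 other windows held 0. They lie at chr7:46845554-46845803 (+ strand, Ldha), chrX:106186850-106187099 (+, Pgk1), chr11:120948817-120949066 (+, Slc16a3), chr6:82774455-82774704 (- strand, Hk2) and chr10:62340422-62340671 (-, Hk1).
Ldha: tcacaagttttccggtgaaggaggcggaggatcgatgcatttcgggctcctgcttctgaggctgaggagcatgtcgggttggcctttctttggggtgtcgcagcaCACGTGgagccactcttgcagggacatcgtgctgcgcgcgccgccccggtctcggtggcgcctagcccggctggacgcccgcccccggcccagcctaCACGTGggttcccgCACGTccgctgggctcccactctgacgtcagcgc
Pgk1: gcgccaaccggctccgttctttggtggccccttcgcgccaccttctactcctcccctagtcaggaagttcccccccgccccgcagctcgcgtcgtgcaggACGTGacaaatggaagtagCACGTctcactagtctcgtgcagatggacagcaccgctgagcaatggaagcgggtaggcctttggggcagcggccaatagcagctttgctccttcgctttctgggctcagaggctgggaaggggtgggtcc
Slc16a3: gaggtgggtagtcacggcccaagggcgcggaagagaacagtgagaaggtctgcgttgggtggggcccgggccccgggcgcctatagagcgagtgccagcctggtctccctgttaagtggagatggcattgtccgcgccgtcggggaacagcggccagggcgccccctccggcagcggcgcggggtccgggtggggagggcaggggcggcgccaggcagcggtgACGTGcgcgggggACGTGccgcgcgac
Hk2: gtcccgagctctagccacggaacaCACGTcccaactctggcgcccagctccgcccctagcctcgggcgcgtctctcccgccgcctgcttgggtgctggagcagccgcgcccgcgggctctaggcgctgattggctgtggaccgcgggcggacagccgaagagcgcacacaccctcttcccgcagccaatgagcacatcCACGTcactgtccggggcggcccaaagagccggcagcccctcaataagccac
Hk1: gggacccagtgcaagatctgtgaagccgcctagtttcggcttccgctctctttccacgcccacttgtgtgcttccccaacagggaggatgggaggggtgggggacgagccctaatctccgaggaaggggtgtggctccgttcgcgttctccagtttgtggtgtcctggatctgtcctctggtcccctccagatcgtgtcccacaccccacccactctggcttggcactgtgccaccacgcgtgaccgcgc
The Ldha window held 3 runs of capitals, at 145, 48 and 34 bases before the start, and Slc16a3 held 2, at 27 and 14 bases. Pgk1 carried 2 runs at 150 and 131 bases and Hk2 carried 2 at 226 and 52 bases; 1.95% of all windows had 2 or more.

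Before these genes, the libraries were checked as a whole. Levels are in FPKM, read counts scaled by transcript length and sequencing depth, and the steps between low values implied 16500000 to 26270000 counted reads per library, so that 3 reads on a 1 kb transcript were worth 0.114 to 0.182 FPKM. None of the 10 genes was at 0 in any library, and their lowest values still implied 33.9 reads or more. Jun and Junb, the deleted genes, were lowest in the GFP libraries, and every Tom library, labelled non-mutant, was also below every control of its compartment. Jun stood at 835 to 1086 FPKM in HF-SC Co, 30.4 to 88.4 in HF-SC GFP and 308 to 614 in HF-SC Tom, and Junb at 436 to 463, 38.6 to 77.5 and 251 to 402. In b-KC, Jun was 876 to 1000.0 in Co, 29.6 to 65.4 in GFP and 163 to 400 in Tom, and Junb was 737 to 772, 37.2 to 72.2 and 208 to 397. Cd34, the sort marker, averaged 736 FPKM among HF-SC controls, 198 in GFP and 286 in Tom cells, against 1.45 among b-KC controls. The HF-SC Tom libraries stood apart in 1 respect: 16 endothelial markers (among them Pecam1, Cdh5 and Plvap, none of them at 0 in all 3 libraries of a group) summed to 984 to 2870 FPKM there, against 100.1 to 167 in HF-SC Co, 2.84 to 52.0 in HF-SC GFP and at most 13.1 in any b-KC library. The part of endothelial RNA in the HF-SC Tom values was not tested. In sorted bulk cells a change in the cells that make up a sample and a change in RNA per cell cannot be told apart.

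In both DKO* populations and both compartments, most but not all of the 10 genes were higher than in control cells. Tests used limma on log2(FPKM + 1) across all 12751 genes that passed a low-value filter, with Benjamini-Hochberg adjustment and a call at adjusted p under 0.05. In HF-SC GFP against HF-SC Co, 8 of the 10 genes rose and 1 fell, where 18.5% of all tested genes rose and 20.0% fell. In HF-SC Tom against the same controls 7 rose and 1 fell (all genes: 22.3% and 22.1%). The gene that fell was Slc2a3 both times, and its fall was built into its selection, as described below. In b-KC GFP 7 rose and none fell (20.3% and 21.3%), and in b-KC Tom 6 rose and none fell (22.6% and 23.3%). The median difference over the 10 genes was 1.77, 1.17, 0.96 and 0.89 on the log2 scale in these 4 comparisons, where the median of all tested genes lay between -0.05 and -0.02. Slc2a1, Hk2, Pfkfb3, Pgk1, Ldha and Slc16a3 rose in all 4. Hk1 passed the test in none. The 2 comparisons within a compartment share their control libraries, and the GFP and Tom libraries come from the same mice, so the 4 comparisons are not independent of each other. The p-values rest on the spread between libraries within a group, pooled over the 6 groups. Libraries of the same mouse were taken as independent in this fit, and pairing by mouse was left out.

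**Figure D1:**
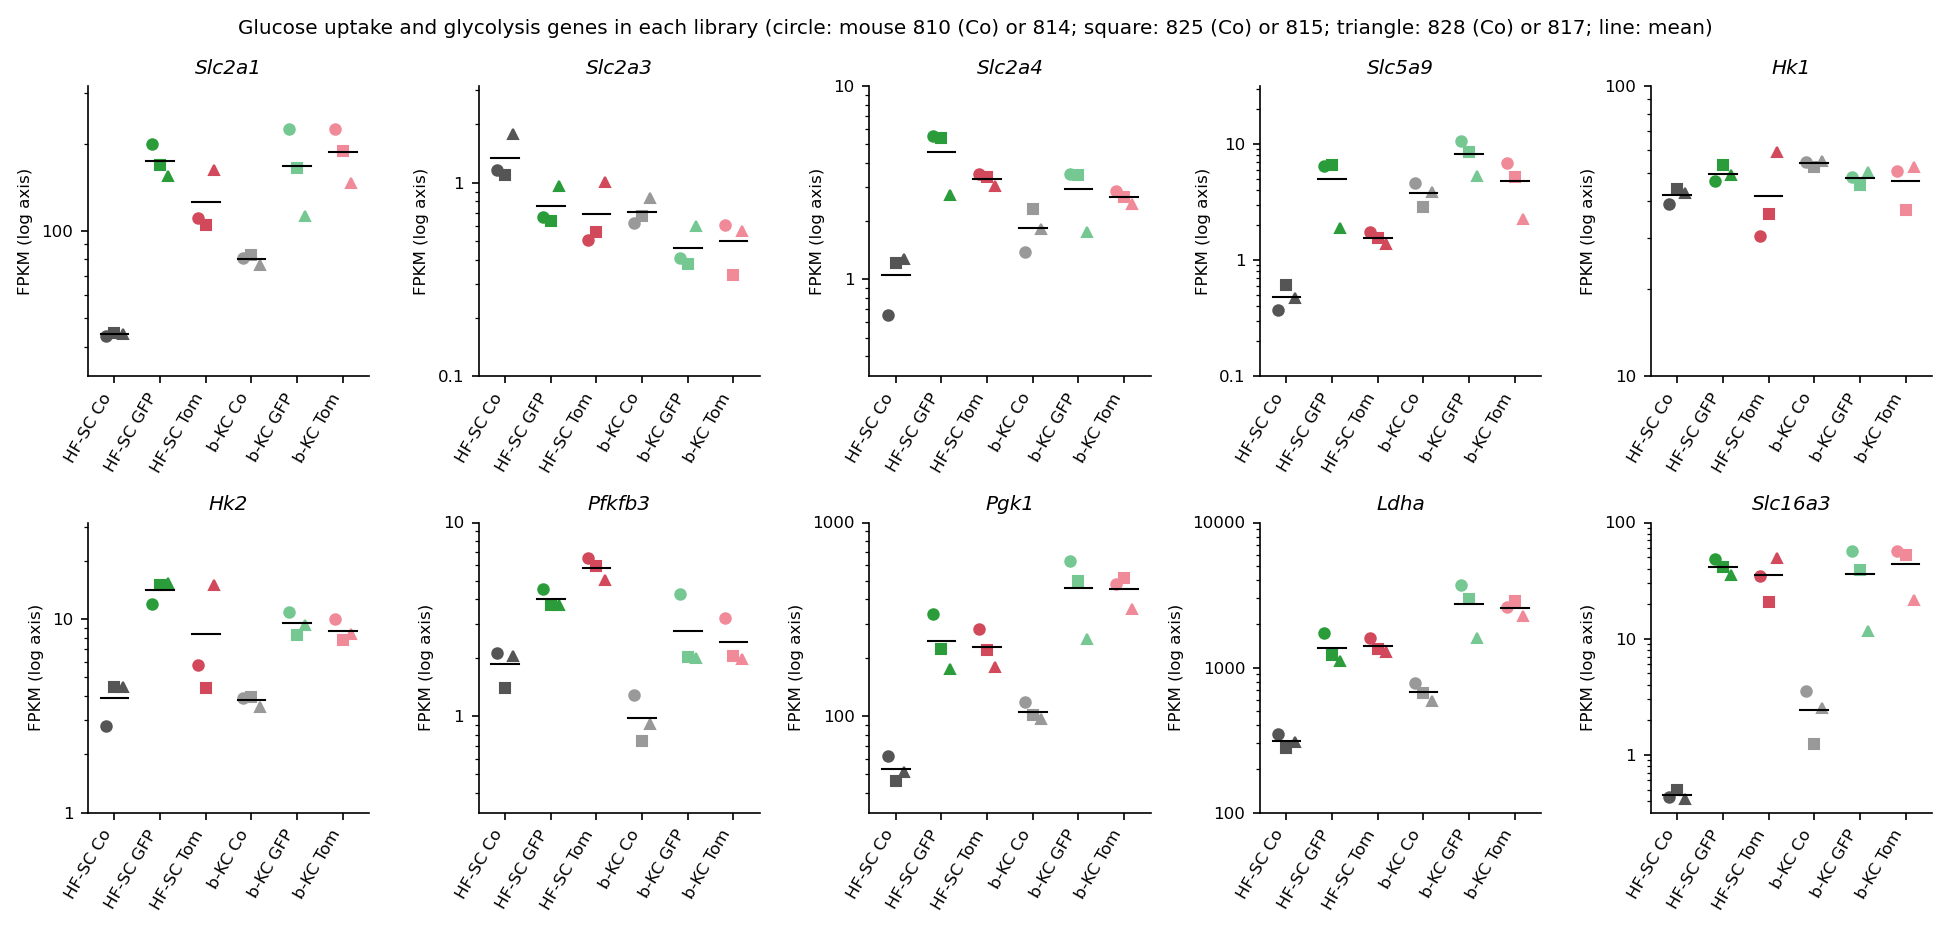
FPKM of each of the 10 genes (log axis) in the 18 libraries, grouped by population, with 1 symbol per mouse and a line at the group mean. For Slc2a1, Pgk1, Ldha and Slc16a3 every GFP and Tom library lies above every control library of its compartment, while the Hk1 levels stay between 30.4 and 59.0 FPKM.

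Glucose entry rested on Slc2a1 (GLUT1, the basal glucose transporter of most cells), at chr4:118781316-118809935 of mm9. In HF-SC it was at 43.6, 44.5 and 44.1 FPKM in Co, at 199, 169 and 155 in GFP and at 111, 105 and 162 in Tom. In b-KC it was at 80.6, 82.6 and 76.7 in Co, at 224, 165 and 113 in GFP and at 224, 189 and 147 in Tom. No DKO* library overlapped the controls of its compartment. The log2 difference from control was 1.95 ± 0.22 (SE) in HF-SC GFP (adjusted p = 6.58e-06, 3.95-fold in mean FPKM), 1.47 ± 0.22 for the Tom cells beside them, and 1.00 ± 0.22 (GFP) and 1.19 ± 0.22 (Tom) for b-KC. Slc2a1 also took a larger part of the summed FPKM of the 11 measured Slc2a genes. Its share was 57.7% to 58.2% in HF-SC Co, 86.0% to 89.7% in HF-SC GFP and 80.4% to 85.3% in HF-SC Tom. In b-KC it was 46.8% to 50.0% in Co, 69.1% to 89.2% in GFP and 76.9% to 89.8% in Tom. Other genes of the sum fell, so these shares do not follow Slc2a1 alone. In b-KC, mean Slc2a12 was 33.4 FPKM in Co, 11.8 in GFP and 8.54 in Tom, and mean Slc2a5 was 29.9, 5.45 and 9.47. In HF-SC, mean Slc2a5 was 11.1, 2.62 and 5.47.

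The other 3 transporters were expressed at low levels. Slc2a4 (GLUT4, the insulin-responsive transporter of muscle and fat; chr11:69756045-69761690) averaged 1.05 ± 0.34 FPKM (SD, n = 3) among HF-SC controls, 4.56 ± 1.58 in GFP and 3.30 ± 0.25 in Tom cells. It rose in both, by 1.41 and 1.08 on the log2 scale (adjusted p = 0.000175 and 0.00125). In b-KC it averaged 1.84 in Co, 2.92 in GFP and 2.66 in Tom, and neither difference passed the test (0.44, 95% interval -0.04 to 0.92, and 0.38, -0.10 to 0.86). Without mouse 817 both did (0.68 and 0.42, adjusted p = 0.00253 and 0.0363). The summed markers of muscle (Acta1, Ckm, Myh4, Tnnt3, Des) reached at most 0.638 FPKM and those of fat (Adipoq, Plin1, Cfd, Lep, Cidec) at most 0.481 in any library.

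Slc5a9 (SGLT4, a sodium-coupled sugar transporter; chr4:111547980-111575523) was at 0.369, 0.614 and 0.471 FPKM in HF-SC Co and at 6.50, 6.65 and 1.89 in HF-SC GFP, a log2 difference of 1.89 ± 0.35 (adjusted p = 0.000615). In HF-SC Tom it was at 1.75, 1.55 and 1.37, above every control but short of the threshold (0.78, adjusted p = 0.0838). It passed without mouse 817 (0.84, adjusted p = 0.000755). In b-KC the controls held 4.64, 2.88 and 3.85 FPKM, b-KC GFP 10.6, 8.59 and 5.35, and b-KC Tom 6.81, 5.20 and 2.27. The b-KC GFP value passed by a small margin (0.91, adjusted p = 0.0494), lost the call when any mouse other than 817 was left out (adjusted p = 0.0692 to 0.173), and the b-KC Tom libraries overlapped the controls (0.19, -0.56 to 0.94), with a call only when mouse 817 was left out (0.55, adjusted p = 0.0117).

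Slc2a3 (GLUT3, a high-affinity transporter best known from neurons; chr6:122677827-122751658) was the only one of the 10 called lower than control, and it was near the bottom of the measured range. It was at 1.16, 1.10 and 1.78 FPKM in HF-SC Co, at 0.668, 0.632 and 0.967 in HF-SC GFP and at 0.504, 0.557 and 1.01 in HF-SC Tom. The log2 differences were -0.41 and -0.47 (adjusted p = 0.0370 and 0.0166). Both calls were lost without mouse 814, 815 or 828, and the GFP call also without mouse 810 (-0.28 to -0.47 and -0.34 to -0.42 on the log2 scale in those cases, adjusted p at least 0.0529). This gene passed the filter through the HF-SC Co libraries, where it was high, so a lower value elsewhere was built into its selection. In b-KC it was at 0.333 to 0.829 FPKM and no difference passed the test.

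Glucose is trapped by hexokinase, and of the 2 isoforms Hk2 rose in all 4 comparisons while Hk1 passed the test in none. Hk1 (the widely expressed isoform; chr10:61731603-61842656) averaged 42.0 ± 2.49 FPKM (SD) among HF-SC controls, 49.8 ± 3.16 in GFP and 41.9 ± 15.1 in Tom cells. The b-KC means were 54.2 ± 1.29 FPKM for controls, 48.3 ± 2.50 for GFP and 46.9 ± 8.27 for Tom. Its log2 difference from control had a 95% interval of -0.15 to 0.63 (GFP) and -0.45 to 0.33 (Tom) for HF-SC and of -0.55 to 0.23 (GFP) and -0.61 to 0.17 (Tom) for b-KC. Without mouse 817 the HF-SC Tom value was -0.33 (adjusted p = 0.0462).

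Hk2 (the inducible isoform that binds mitochondria; chr6:82675019-82724448) was at 2.81, 4.48 and 4.44 FPKM in HF-SC Co, at 12.1, 15.0 and 15.5 in HF-SC GFP and at 5.80, 4.43 and 15.0 in HF-SC Tom. In b-KC it was at 3.91, 3.97 and 3.52 in Co, at 10.9, 8.27 and 9.39 in GFP and at 10.1, 7.76 and 8.35 in Tom. Only the HF-SC Tom libraries overlapped their controls, and the library of mouse 817 stood far above the other 2 there. The log2 differences were 1.64 ± 0.29 (adjusted p = 0.000339), 0.79 ± 0.29 (0.0345), 1.13 ± 0.29 (0.00599) and 1.01 ± 0.29 (0.00926) in GFP and Tom cells of HF-SC and in those of b-KC. Without mouse 817 the HF-SC Tom difference was 0.33 (adjusted p = 0.150), and that call was also lost without any of the 3 control mice (0.62 to 0.88, adjusted p = 0.0598 to 0.150). Hk2 made up 6.70% to 9.38% of the summed Hk1 and Hk2 FPKM in HF-SC Co, 20.4% to 23.9% in HF-SC GFP and 10.9% to 20.2% in HF-SC Tom. For b-KC the shares were 6.01% to 7.01% in Co, 15.3% to 18.3% in GFP and 13.7% to 17.2% in Tom.

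**Figure D2:**
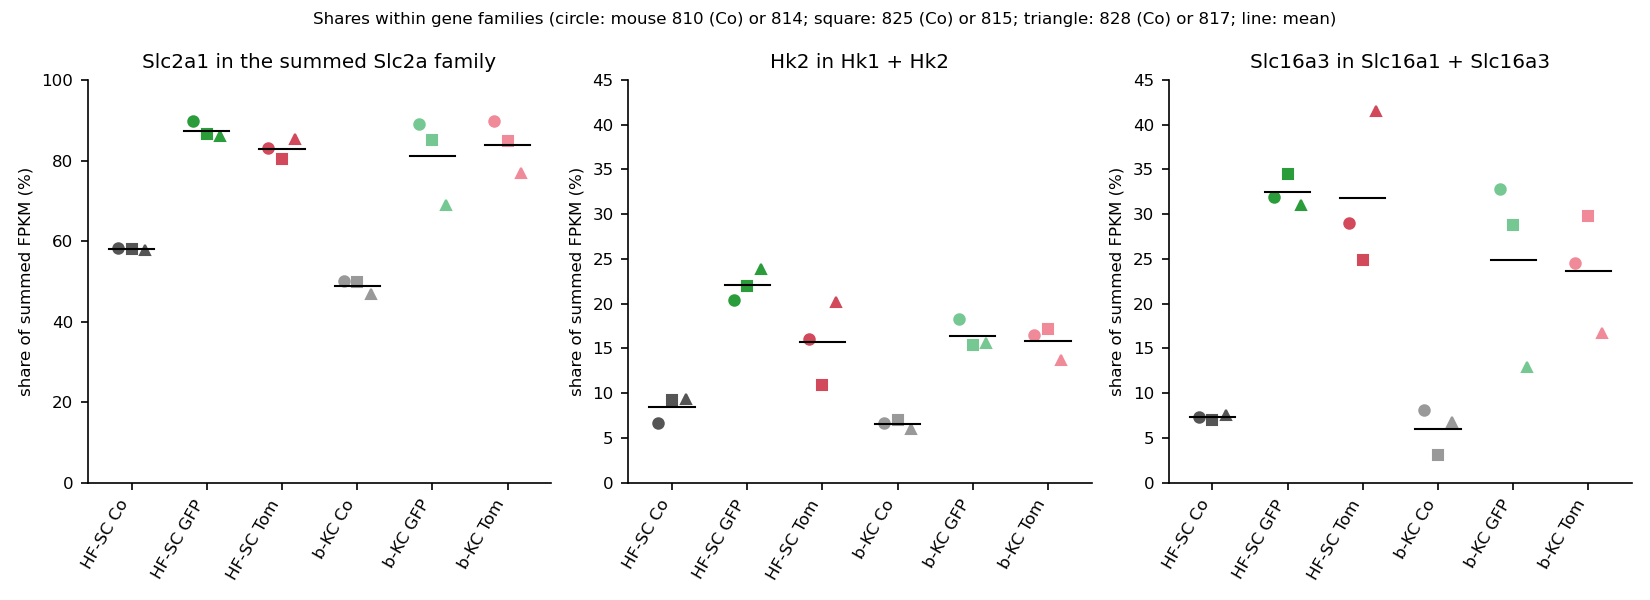
Share of Slc2a1 in the summed FPKM of 11 Slc2a genes, of Hk2 in Hk1 plus Hk2, and of Slc16a3 in Slc16a1 plus Slc16a3, in percent per library, with 1 symbol per mouse and a line at the group mean. In all 3 panels every GFP and Tom library lies above every control library of its compartment, for Hk2 from 6.70% to 9.38% in HF-SC Co to 20.4% to 23.9% in HF-SC GFP.

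Pfkfb3 makes fructose 2,6-bisphosphate, the strongest activator of phosphofructokinase, and lies at chr2:11393057-11423728. It was at 2.12, 1.40 and 2.05 FPKM in HF-SC Co, at 4.53, 3.73 and 3.74 in HF-SC GFP and at 6.58, 5.94 and 5.04 in HF-SC Tom, so that all Tom libraries were above all GFP libraries. In b-KC it was at 1.28, 0.743 and 0.904 in Co, at 4.27, 2.01 and 1.99 in GFP and at 3.20, 2.05 and 1.96 in Tom. The log2 differences from control were 0.81 ± 0.21, 1.27 ± 0.21, 0.88 ± 0.21 and 0.77 ± 0.21 for GFP and Tom cells of HF-SC and then of b-KC (adjusted p = 0.00655, 0.000188, 0.00426 and 0.00761).

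Pgk1, which forms the first ATP of the pathway's payoff phase, and Ldha, which turns pyruvate into lactate, were the most abundant of the 10 in DKO* cells. Pgk1 (chrX:103382439-103399038) was at 62.1, 45.9 and 51.3 FPKM in HF-SC Co, at 338, 221 and 175 in HF-SC GFP and at 282, 219 and 179 in HF-SC Tom. In b-KC it was at 117, 101 and 96.6 in Co, at 632, 497 and 250 in GFP and at 483, 519 and 357 in Tom. It was 4.61-fold, 4.27-fold, 4.38-fold and 4.32-fold control in mean FPKM, with no overlap.

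Ldha (chr7:54096845-54110997) was at 349, 279 and 308 FPKM in HF-SC Co, at 1721, 1230 and 1111 in HF-SC GFP and at 1608, 1341 and 1277 in HF-SC Tom. Controls of b-KC held 789, 669 and 590, b-KC GFP 3695, 2964 and 1591, and b-KC Tom 2595, 2867 and 2277. By mean FPKM, Ldha moved from place 136 of 23951 genes in HF-SC controls to place 14 (GFP) and 15 (Tom), and from place 67 in b-KC controls to 14 (GFP) and 13 (Tom). The log2 differences of Ldha were 2.09, 2.17, 1.93 and 1.92 (SE 0.27) and those of Pgk1 2.14, 2.06, 2.02 and 2.09 (SE 0.30), for GFP and Tom cells of HF-SC and then of b-KC. All 8 passed the test, with adjusted p from 1.51e-05 to 0.000161. Ldha and Pgk1 were also each other's nearest neighbour: over the 18 libraries their log2(FPKM + 1) values correlated with r = 0.99, above every other tested gene. Both genes are known to have processed pseudogenes in mouse, and reads with several alignments were kept, so reads from copies may be in these values; their part was not measured.

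Slc16a3 (MCT4, the lactate exporter of highly glycolytic cells; chr11:120809794-120822182) had the largest change of the 10. It was at 0.433, 0.494 and 0.414 FPKM in HF-SC Co, at 48.9, 41.1 and 35.2 in HF-SC GFP and at 34.7, 20.7 and 49.8 in HF-SC Tom. Controls of b-KC held 3.53, 1.25 and 2.50 FPKM, b-KC GFP 56.6, 39.3 and 11.5, and b-KC Tom 56.6, 52.6 and 21.5. Every DKO* library was above every control of its compartment. The log2 differences were 4.87 ± 0.48, 4.56 ± 0.48, 3.22 ± 0.48 and 3.64 ± 0.48 (adjusted p = 1.59e-06, 2.53e-06, 0.000154 and 3.18e-05). They ranked at places 41, 33, 75 and 53 among the 12751 tested genes ordered from the largest rise. In mean FPKM the ratio was 93.5 in HF-SC GFP and 78.6 in HF-SC Tom against 14.7 and 17.9 in b-KC GFP and b-KC Tom. The HF-SC ratios divide by controls under 1 FPKM, so their size is uncertain. The change did not differ detectably between compartments by limma (1.65, adjusted p = 0.124 for GFP, and 0.92, adjusted p = 0.414 for Tom). Of Slc16a1 (MCT1) plus Slc16a3, the share of Slc16a3 went from 7.02% to 7.60% in HF-SC Co to 31.0% to 34.5% in HF-SC GFP and 24.9% to 41.5% in HF-SC Tom. In b-KC it went from 3.12% to 8.10% in Co to 12.9% to 32.8% in GFP and 16.7% to 29.8% in Tom.

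**Figure D3:**
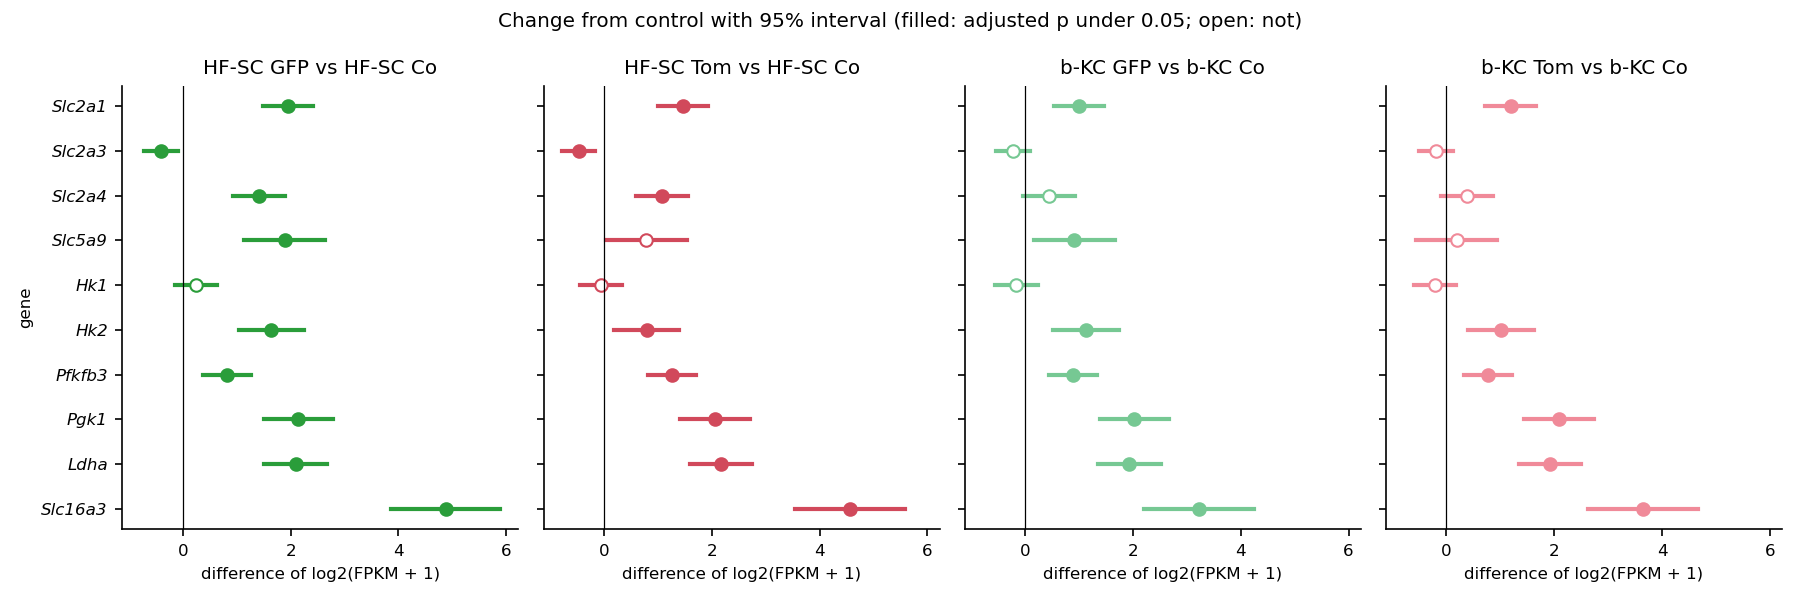
Difference from control on the log2(FPKM + 1) scale for each of the 10 genes in 4 comparisons, with the 95% interval from limma. Filled points passed adjusted p under 0.05. Slc16a3 lies farthest to the right in all 4 panels (4.87, 4.56, 3.22 and 3.64), Ldha and Pgk1 sit near 2 throughout, and Hk1 is open in all 4.

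The HF-SC Tom changes have to be read beside the endothelial markers, which were highest in those 3 libraries. In HF-SC GFP the same markers (2.84 to 52.0 FPKM) were below their level in HF-SC Co. Ldha, Pgk1 and Slc16a3 differed from control by similar amounts among GFP and Tom cells (2.09 against 2.17, 2.14 against 2.06 and 4.87 against 4.56). The difference was larger among GFP cells for Slc2a1 (1.95 against 1.47), Slc2a4 (1.41 against 1.08), Slc5a9 (1.89 against 0.78) and Hk2 (1.64 against 0.79). For Pfkfb3 it was smaller (0.81 against 1.27). Hk1 stood at 0.24 against -0.06 and Slc2a3 at -0.41 against -0.47. Whether endothelial RNA had a part in any of these values was not tested. Among the HF-SC Tom libraries, that of mouse 817 had the lowest endothelial sum (984 FPKM, against 2765 and 2870) and the highest Slc2a1, Hk1, Hk2 and Slc16a3. Slc2a4, Slc5a9, Pfkfb3, Pgk1 and Ldha were lowest in it, and Slc2a3 was highest. Leukocyte markers (11 genes, among them Ptprc and Tyrobp) summed to 3.24 to 5.27 FPKM in HF-SC Co, 7.50 to 32.9 in HF-SC GFP and 13.3 to 23.9 in HF-SC Tom. In b-KC they summed to 1.29 to 1.82 FPKM for Co, 4.93 to 5.91 for GFP and 1.90 to 5.34 for Tom, so that in both compartments every DKO* library was above every control.

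Markers of the sorted cells themselves moved as well. Cd34 was lower than control by 1.89 on the log2 scale in HF-SC GFP (adjusted p = 0.000587) and by 1.35 in HF-SC Tom (0.00575). Of 8 markers of the hair follicle bulge, Cd34 included, 5, 6, 1 and 5 fell and none rose, in the order GFP and Tom cells of HF-SC and then of b-KC. Another 4 genes mark keratinocytes above the basal layer (Krt1, Krt10, Krtdap and Sbsn). They summed to 756 to 959 FPKM in HF-SC Co, 1718 to 3449 in HF-SC GFP and 1652 to 2098 in HF-SC Tom, where Krt1 (2.84 and 2.27) and Krtdap (1.84 and 1.41) rose in both and Sbsn fell in Tom (by 0.95). In b-KC the same sum was 6893 to 8587 in Co, 4889 to 6879 in GFP and 3870 to 6971 in Tom. The part of leukocyte RNA and of these shifts in the changes of the 10 genes was not tested.

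Mutant and non-mutant cells of the same mice were compared next. In HF-SC GFP against HF-SC Tom none of the 10 passed the test, where 2.83% of all genes were called higher and 5.80% lower. At an unadjusted p under 0.05 there were 4: Slc5a9 (1.11, adjusted p = 0.0678), Hk2 (0.85, 0.0841) and Slc2a1 (0.48, 0.233) were higher in GFP cells, and Pfkfb3 was lower (-0.45, 0.246). Taking account of the mouse as a random replicate block, Slc5a9 and Hk2 passed (adjusted p = 0.00970 and 0.0362). That fit called 1729 of all genes, against 1100 without the block. The mice did not behave alike. Hk2 was higher in GFP than in Tom cells by 0.94 in mouse 814 and 1.56 in mouse 815 but by 0.05 in mouse 817, and Slc2a1 by 0.83 and 0.68 but -0.07. Pfkfb3 was lower in GFP cells of all 3 mice (-0.46, -0.55 and -0.35). Without mouse 817, 5 of the 10 were called: Slc2a1 (0.76), Slc2a4 (0.54), Slc5a9 (1.52), Hk1 (0.58) and Hk2 (1.25), all higher in GFP cells. The same omission raised the count over all genes from 1100 to 2922. For the 3 genes at the lactate end the 95% interval of the difference was -0.66 to 0.51 for Ldha, -0.56 to 0.72 for Pgk1 and -0.70 to 1.33 for Slc16a3.

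In b-KC GFP against b-KC Tom none of the 10 passed the test and none reached an unadjusted p under 0.05. Few genes did so in the whole table (1.19% called higher and 0.518% lower). Every one of the 10 had overlapping GFP and Tom libraries, which is description only, as the share over all tested genes was not computed. The 95% intervals of the difference were -0.66 to 0.28 for Slc2a1, -0.49 to 0.72 for Hk2, -0.57 to 0.60 for Ldha and -1.44 to 0.60 for Slc16a3, so that differences of up to these sizes were not resolved. Slc5a9 was higher in GFP cells of all 3 mice (0.57, 0.63 and 0.96), and its fitted difference of 0.72 had an interval of -0.03 to 1.47.

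**Figure D4:**
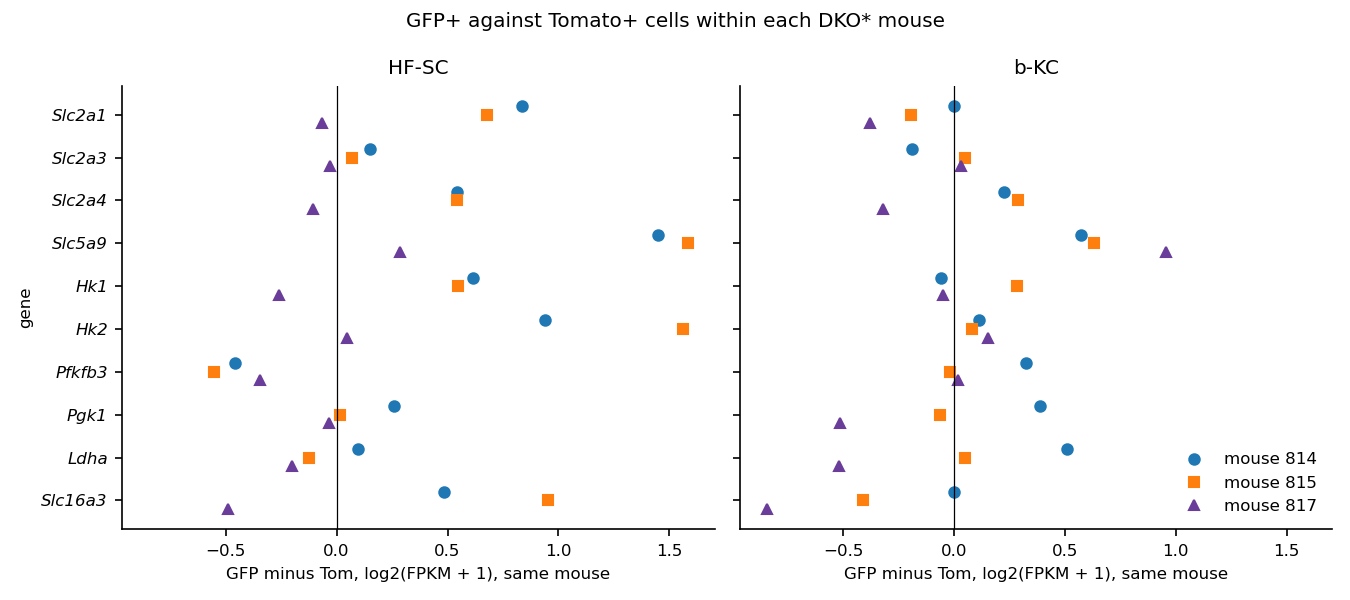
GFP minus Tom difference in log2(FPKM + 1) within each DKO* mouse for HF-SC (left) and b-KC (right), with 1 symbol per mouse and a line at no difference. In HF-SC, mice 814 and 815 lie to the right of the line for Slc2a1, Slc2a4, Slc5a9, Hk1 and Hk2 while mouse 817 lies near it or to its left, and all 3 mice lie to the left for Pfkfb3.

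In control skin the 2 compartments differed before any deletion. Compared with b-KC Co, HF-SC Co had 2 of the 10 genes higher and 5 lower, where 24.6% of all genes were called higher and 27.3% lower. Slc5a9 was 7.82-fold, Slc16a3 5.44-fold, Ldha 2.19-fold, Pgk1 1.98-fold and Slc2a1 1.82-fold higher in b-KC Co by mean FPKM (adjusted p = 0.000990, 0.0487, 0.00301, 0.0136 and 0.00472). Pfkfb3 and Slc2a3 were higher in HF-SC Co (log2 differences 0.53 and 0.45, adjusted p = 0.0460 and 0.0182), the latter through its selection as described. With 2 control mice instead of 3 the count went from 7 to 3 or 4: leaving out mouse 810 or mouse 828 left 3 calls and leaving out mouse 825 left 4. The count over all tested genes went from 6623 to between 4832 and 4989. Slc2a1 and Slc5a9 kept theirs in each case, as did Ldha, while the others lost theirs without at least 1 of these mice. With the mouse as a fixed block, 9 of the 10 were called, adding Slc2a4 and Hk1 (-0.47 and -0.36, adjusted p = 0.0082 and 0.0118). That fit called 8528 of the 12751 tested genes, against 6623 in the main fit. Hk2 did not differ detectably (0.01, -0.59 to 0.62).

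HF-SC controls started lower for several genes, so the change from control was also compared between compartments. No gene of the 10 passed in the change from Co to GFP (12.5% of all genes did, in either direction) or from Co to Tom (15.8%). The nearest were Slc2a1 and Slc2a4, whose rise in GFP cells was larger for HF-SC than for b-KC by 0.95 ± 0.31 and 0.97 ± 0.32 on the log2 scale (adjusted p = 0.0579 and 0.0600). Both passed with the mouse as a random replicate block (adjusted p = 0.0234 and 0.0120), a fit that called 2884 of all genes, against 1597 without the block. Slc16a3 differed by 1.65 ± 0.68 (adjusted p = 0.124) and Slc5a9 by 0.98 ± 0.50 (0.215). Without mouse 817, Slc2a1 (0.78), Slc2a4 (1.00), Slc5a9 (1.20) and Slc16a3 (1.12) were called. That omission also raised the count over all 12751 tested genes from 1597 to 3921. For Ldha and Pgk1 the difference between compartments had intervals of -0.66 to 0.98 and -0.79 to 1.02. At an unadjusted p under 0.05 there were 3 genes in the change to GFP and 1 (Slc2a4, 0.70) in the change to Tom, where Slc2a4 alone was called without mouse 817 (0.71). Over all genes that omission raised the count in the change to Tom from 2019 to 3243.

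The other enzymes of glycolysis moved with these genes, though not all in the same direction. Of 22 listed, 17 were tested; 10, 9, 10 and 10 rose and 4, 4, 3 and 4 fell, in the order used above. Every step between glucose 6-phosphate and pyruvate had a gene that rose in all 4 comparisons: Gpi1 (1.40, 1.14, 1.27 and 1.28, in the same order), the liver-type phosphofructokinase Pfkl (1.47, 1.34, 1.28 and 1.42), aldolase Aldoa (1.02, 0.86, 1.15 and 1.13), Tpi1 (0.87, 0.78, 1.27 and 1.37), Gapdh (1.58, 1.60, 2.01 and 2.18), the mutase Pgam1 (1.71, 1.42, 1.48 and 1.62), enolase Eno1 (1.70, 1.71, 1.34 and 1.63) and pyruvate kinase Pkm (1.34, 1.40, 1.50 and 1.74). Pfkfb1, counted among the rises, rose by less (0.35 to 0.45). Its controls were all under 1 FPKM (0.589 to 0.862 in HF-SC Co, 0.559 to 0.669 in b-KC Co). It passed the filter only through DKO* libraries, so its rise was built into its selection. In the opposite direction, the muscle-type phosphofructokinase Pfkm fell by 0.61 to 0.75, the muscle enolase Eno3 by 0.47 to 0.85 and Pfkfb2 by 0.65 to 1.14 in all 4 comparisons. Aldoc, the brain-type aldolase, had the largest fall in HF-SC Tom (1.05) and was called there alone among the 4. Eno1 has a near-identical copy in the table (Eno1b), and Gapdh has many pseudogenes, so their values are less certain.

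**Figure D5:**
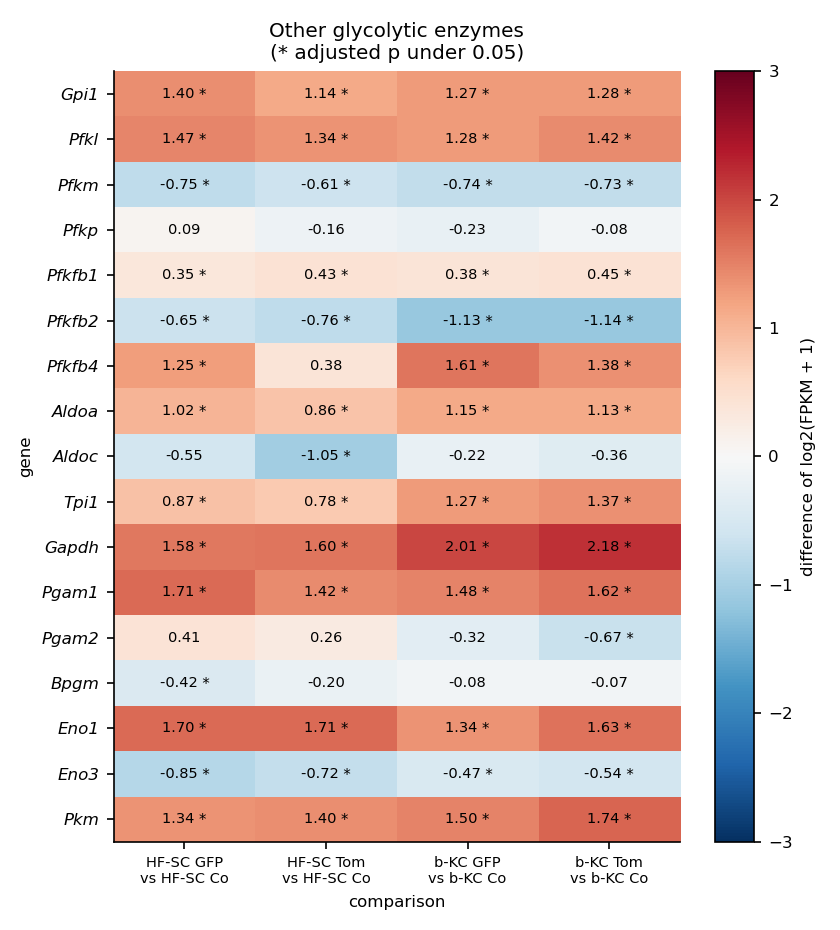
Difference from control in log2(FPKM + 1) for the 17 tested enzymes of glycolysis that are not among the 10 genes, in pathway order, for the 4 comparisons; red is higher and blue lower in DKO* cells, and an asterisk marks adjusted p under 0.05. Gapdh in b-KC Tom (2.18) is the strongest red, and Pfkm, Pfkfb2 and Eno3 are blue in all 4 columns.

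Outside glycolysis the picture was mixed. Of the 8 tested among 14 other sugar transporters, 3, 3, 3 and 1 rose and 2, 1, 3 and 4 fell. Slc2a9, among the rises, was at most 0.792 FPKM in any control and passed the filter only through DKO* libraries. Slc2a6, among the falls in b-KC, passed it through b-KC Co (1.66 to 2.47 FPKM). These calls were built into their selection. Slc5a1 (SGLT1, the sodium-glucose cotransporter of gut and kidney) rose in all 4, by 3.72, 2.31, 1.97 and 1.82, and Slc2a5, a fructose transporter, fell in all 4, by 1.73, 0.92, 2.44 and 1.62. Slc2a12 (GLUT12) fell in both b-KC comparisons (by 1.56 and 2.02; -0.22 and -0.70 in HF-SC, not called). Among 13 tested genes for the fate of lactate and pyruvate 5, 6, 5 and 5 rose and 2, 3, 3 and 4 fell. Slc16a1, the MCT1 partner of Slc16a3, rose by 3.71, 3.45, 1.32 and 1.79. Subunits of pyruvate dehydrogenase rose a little (Pdhb by 0.59 to 0.72, Dlat by 0.40 to 0.62), while Pdk2, a kinase that inhibits it, fell by 0.92 to 1.44, and Slc16a7 (MCT2) fell by 0.72 to 1.56. Pdk4, another such kinase, had the largest falls of the list in b-KC (1.56 and 2.52). In HF-SC it was above control by 0.37 and 0.16, not called. Its change differed between compartments (adjusted p = 0.000928 for GFP and 4.98e-05 for Tom). The median difference over this list, 0.28 to 0.36, was well below that of the 10 genes.

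Of the 7 genes of the pentose phosphate pathway, which branches off at glucose 6-phosphate, 2, 1, 3 and 3 rose and none fell; the entry enzyme G6pdx rose in all 4 (1.88, 1.73, 0.69 and 0.85), and Pgd, a later enzyme, rose in HF-SC GFP and both b-KC comparisons (0.85, 0.82 and 0.84; 0.68 in HF-SC Tom, not called). Among 10 tested genes of gluconeogenesis and glycogen, 3, 3, 2 and 4 rose and 2, 3, 1 and 2 fell. The phosphoglucomutase Pgm2 rose in all 4 (0.99 to 1.29) and the glycogen phosphorylase Pygb fell in all 4 (by 0.90 to 1.13). The largest rise was that of Fbp1, the fructose bisphosphatase of gluconeogenesis, by 2.88 (GFP) for HF-SC and by 3.78 (GFP) and 1.91 (Tom) for b-KC (1.30 in HF-SC Tom, adjusted p = 0.0768). Pcx, which carboxylates pyruvate, rose in both HF-SC comparisons (1.85 and 1.41), and Pygl, the liver-type phosphorylase, fell by 1.17, 1.52 and 0.80 in HF-SC GFP, HF-SC Tom and b-KC Tom (-0.55 in b-KC GFP, not called). These lists were chosen with earlier results of these data known, and their counts are given as description only.

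HIF targets that do not act in glycolysis rose in part. Of 14 tested, 7, 7, 8 and 7 rose and 0, 1, 1 and 1 fell. The angiogenic factor Vegfa rose by 2.74, 1.86, 1.55 and 1.36, the HIF prolyl hydroxylase Egln3 by 3.90, 2.69, 2.58 and 2.19, its relative Egln1 by 1.08, 0.84, 0.68 and 1.11, and the carbonic anhydrase Car9 by 2.07, 1.24, 0.99 and 0.85. Higd1a (1.17 to 1.68) and Ankrd37 (0.59 to 1.27) rose in all 4 as well. Mxi1, a Myc antagonist, was the one that fell (by 0.78, 0.40 and 0.81; -0.30 in HF-SC GFP, not called). The median over the list was 1.15, 0.83, 0.83 and 0.69. Among 7 tested regulators, Hif1a itself rose from a mean of 43.2 FPKM among HF-SC controls to 139 (GFP) and 128 (Tom), and from 42.0 among b-KC controls to 112 (GFP) and 118 (Tom) (1.66, 1.55, 1.36 and 1.37). Vhl, which marks HIF for degradation, rose by 0.68 to 0.85. Arnt, the partner subunit of Hif1a, fell by 0.36 to 0.50. Txnip, an inhibitor of glucose uptake, fell by 1.18, 1.48, 1.18 and 1.66. Myc fell in b-KC only (by 1.65 and 1.59, against -0.61 and -0.47 in HF-SC, not called), and the difference between compartments did not pass its own test (adjusted p = 0.153 for GFP and 0.118 for Tom). Epas1, the HIF2 subunit typical of endothelium, was called in HF-SC Tom alone among the 4 comparisons (2.22), in the group with the highest endothelial markers, and GFP cells had less of it than Tom cells there (-2.65).

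Across the 18 libraries the 10 genes did not form a single block. Slc2a1 correlated with Slc16a3 at r = 0.95 and with Ldha and Pgk1 at 0.93, and Ldha with Slc16a3 at 0.90. Hk1 correlated with none of these above 0.20. Slc2a3 ran against Ldha at r = -0.83, but it passed the filter through the HF-SC Co libraries, where it was high. The tested gene nearest to Slc16a3 was Gjb2 (r = 0.98), a connexin of stressed epidermis, that nearest to Slc5a9 was Casp14 (0.98), a caspase of cornifying keratinocytes, that nearest to Hk2 was the growth factor Tgfa (0.95), and that nearest to Slc2a1 was the polyamine oxidase Smox (0.96). For Slc2a4 it was Aldh1a3 (0.93), for Pfkfb3 C1rl (0.92), for Slc2a3 Ttc21b (0.94) and for Hk1 Senp1 (0.93). These correlations are descriptions over 18 libraries from 6 mice, which share the 6 group labels, so the points are not independent.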

How the data were processed

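Poly(A) RNA of sorted cells was amplified with the SMART-Seq v4 kit and made into unstranded Nextera XT libraries for single-end sequencing. The authors aligned reads with TopHat 2.0.10 and Bowtie 1.0.0 to mouse build mm9, keeping reads with several alignments, and deposited gene levels in FPKM from Cufflinks 2.2.1; the annotation version is not given in the sources used here. FPKM holds no read counts, and between 75.1% and 79.5% of low values of 7744 single-transcript genes lay within 0.1 of a whole read at the implied depth, too few to recover counts for a count test.

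Values were tested as log2(FPKM + 1), a scale that understates changes of low genes, in limma 3.58.1 (R 4.3.3; lmFit, contrasts and eBayes with a trend) with all 6 groups in 1 fit, over the 12751 of 23951 genes that reached 1 FPKM in 3 or more libraries out of 18. The p-values were adjusted (Benjamini-Hochberg) over these genes in each of 9 comparisons. The script was tested on simulated data. Same-numbered libraries come from the same mouse, and their deviations from the group means correlated at r = 0.0838 to 0.700, so a fit with the mouse as a replicate block (consensus correlation 0.274) was run as an alternative. Other alternatives changed the pseudocount, filter, scaling, trend, samples fitted and call rule, or left out each mouse. All 10 genes are reported. Of the listed pathway genes, those called in all 4 comparisons with control are named, and otherwise the gene with the largest called rise or fall in a list and comparison; nearest neighbours are the tested genes with the highest Pearson r. Members and lists were chosen with earlier results of these data known. Gene coordinates are from the GENCODE vM1 annotation of mm9, and promoter windows from RefSeq (GRCm38.p6). An exact 0 can be a failed estimate here (Krt14 is listed at 0 in 3 b-KC libraries). Tigar, a listed regulator, was not analysed here.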

Additional observations from a re-analysis of the deposited data

Results flagged for a closer look

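The GFP and control libraries of Hk1 were separate in both compartments but in opposite order, although neither difference passed the test (0.24, adjusted p = 0.321, in HF-SC and -0.16, adjusted p = 0.497, in b-KC). All 3 HF-SC GFP libraries (47.1, 53.3 and 49.2 FPKM) were above all 3 HF-SC Co libraries (39.2, 44.0 and 42.9), and all 3 b-KC GFP libraries (48.7, 45.7 and 50.6) were below all 3 b-KC Co libraries (54.8, 52.7 and 55.0). The difference between the 2 changes was 0.40 ± 0.26 (SE) on the log2 scale and did not pass the limma test (adjusted p = 0.322). It passed when the 2 GFP and 2 control groups alone were fitted (adjusted p = 0.0470). With 3 libraries in each group, no search for single outlying libraries was made.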

How the results depend on the processing

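Of 120 recomputed counts of called genes, 104 stayed within 1.5 times the reported count. A call at adjusted p under 0.01 with an absolute log2 difference of at least 2 left 3 genes in GFP and 3 in Tom cells of HF-SC against control, 2 and 2 in those of b-KC, and 0 in HF-SC Co against b-KC Co. Over all 12751 tested genes that rule left 391, 521, 239, 351 and 720 in the same order. The mouse as a random replicate block gave 2 calls in HF-SC GFP against HF-SC Tom and 2 in the change to GFP between compartments, in place of 0. Over all genes it gave 1729 and 2884 there, in place of 1100 and 1597. Apart from these and Slc2a4 and Hk1 between the controls, the block changed no call reported here. In the change to GFP, a pseudocount of 0.1 gave 1 call (Slc16a3; 1424 of all genes). Fitting only the groups compared gave 2 (Slc2a1 and Hk1, with 2315 of all genes). Leaving out each mouse gave 0 to 5 calls in HF-SC GFP against HF-SC Tom, 3 to 9 between the controls, 0 to 4 in the change to GFP and 0 to 1 in the change to Tom. Over all genes the counts were 424 to 2922, 4832 to 8130, 427 to 3921 and 898 to 3243. The upper ends are all without mouse 817. Mouse 817 gave no control library, so between the controls its omission left the differences as they were and changed only the spread estimated over all groups. For the other comparisons the cause was not tested. Uncalled differences that changed sign without 1 mouse were Hk1 in HF-SC Tom (-0.33 to 0.14), Slc5a9 in b-KC Tom (-0.073 to 0.55) and Hk2 between the controls (-0.11 to 0.20). Fitting only the groups compared ended the HF-SC calls of Slc2a3 (adjusted p = 0.0801 and 0.0857) and of Hk2 in HF-SC Tom (0.171). Of 798 recomputed fold changes, 695 kept direction and call, 67 lost the call, 31 gained it and 5 changed sign. Levels under about 1 FPKM, as for Slc2a3 and for Slc5a9 and Slc16a3 in HF-SC Co, are limited by depth.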
